A study of Mus musculus with 2 samples.

Results

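The genes described are those of the mouse potassium channel family, taken as every gene whose symbol starts with Kcn and that has at least 1 transcript annotated as protein-coding. This rule uses no measured value. It found 94 genes among 55536 annotated genes, of which 21901 have a protein-coding transcript. The samples were the hearts of 2 female mice of strain B6CASTF1/J, F1 animals with a C57BL/6J and a CAST/EiJ parent, aged 10 days and supplied by The Jackson Laboratory. They form a single group without treatment, transgene or control. Each heart gave 1 total RNA library from 300 ng of RNA, and the labels number the libraries as biological replicates 1 and 2 under the same donor record. They are taken here as 2 animals, which the labels do not state outright, so the spread between the libraries may be partly technical.

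Potassium channels let potassium ions leave the cell and so return the membrane of a heart muscle cell to rest after each beat. The pore is formed by voltage-gated subunits (Kv), by inward rectifiers (Kcnj), by tandem-pore leak channels (Kcnk) or by channels opened by calcium or sodium, while accessory subunits set the gating and the number of channels at the membrane. Well known currents of heart muscle are the rapid and slow delayed rectifiers (Kcnh2, and Kcnq1 with Kcne1), the transient outward current (Kcnd2 and Kcnd3 with Kcnip2, and Kcna4), the resting current (Kcnj2, Kcnj12), the acetylcholine-gated current (Kcnj3 with Kcnj5) and the ATP-sensitive current (Kcnj11 and Kcnj8 with the receptors Abcc8 and Abcc9).

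Some of these genes make more than 1 protein, and the stretches of coding sequence that tell the forms apart are shown first because the results on transcripts turn on them. Sequences are from the GENCODE M21 transcripts and coordinates are on mm10, all on the minus strand, written 5′ to 3′. The long and short forms of Kcnh2 begin in different first coding exons, at chr5:24351208-24351283 for Kcnh2-201 and at chr5:24329165-24329272 for Kcnh2-202, with the start codon in capitals.
Kcnh2-201: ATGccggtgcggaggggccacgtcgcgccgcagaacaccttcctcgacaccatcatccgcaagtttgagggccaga
Kcnh2-202: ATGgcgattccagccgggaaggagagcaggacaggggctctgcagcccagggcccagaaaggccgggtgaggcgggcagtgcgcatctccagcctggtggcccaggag
The 2 leading forms of Kcnip2 differ by a single exon of 54 bases at chr19:45796279-45796332, shown in capitals between 20 bases on either side, which Kcnip2-202 joins directly.
Kcnip2-209: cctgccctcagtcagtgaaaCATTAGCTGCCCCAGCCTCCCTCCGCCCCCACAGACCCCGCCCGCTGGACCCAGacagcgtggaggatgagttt
Kcnip2-202: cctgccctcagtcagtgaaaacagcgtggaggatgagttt
Transcript Kcnj8-201 lacks 34 coding bases of Kcnj8-202 at chr6:142566472-142566505, shown in capitals for Kcnj8-202, and its coding sequence ends 7 bases after the junction, shown in capitals for Kcnj8-201.
Kcnj8-202: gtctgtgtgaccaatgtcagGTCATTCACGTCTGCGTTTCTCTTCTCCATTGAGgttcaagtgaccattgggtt
Kcnj8-201: gtctgtgtgaccaatgtcagGTTCAAG

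The libraries held 40184481 and 39620543 expected counts over annotated genes in replicates 1 and 2. An expected count is a read count in which RSEM shares a read that fits several genes. Kcn genes held 0.115% of them in replicate 1 (exact Clopper-Pearson 95% interval 0.114% to 0.116%) and 0.122% in replicate 2 (0.121% to 0.123%), intervals that cover counting error only. The tissue label was checked against 6 defining heart muscle genes, all of which were detected in both libraries, with a median of 2790 and 3000.3 TPM, a level given as a share of all transcripts and corrected for their length. Genes of other cells differed between the hearts. The summed TPM of 8 atrial muscle markers was 540.1 in replicate 1 and 987 in replicate 2, that of 5 red cell genes 5269 and 12984, that of 5 fat genes 64.5 and 10.1, and that of 8 neuron and Schwann cell genes 9.63 and 4.69. In whole tissue, fewer cells of a type and less RNA per cell cannot be told apart.

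Potassium channel RNA in these hearts came from a small part of the family. A gene was counted as detected at 1 TPM or more in both libraries, and 26 of the 94 genes passed (27.7%), beside 11715 of 21901 protein-coding genes (53.5%). All 94 together summed to 583 and 608 TPM in replicates 1 and 2. The 5 highest genes held 67.7% and 66.6% of that sum, and the 10 highest held 86.5% and 85.0%. Levels reached 10 TPM in both libraries for 11 genes, and 38 genes had a mean under 0.1 TPM. Of 26 voltage-gated calcium channel subunit genes 11 were detected, and of 14 sodium channel subunit genes 4, with summed means of 182 ± 1.94 and 64.4 ± 2.75 TPM (SD, n = 2) against 595 ± 17.8 TPM for the Kcn genes.

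**Figure D1:**
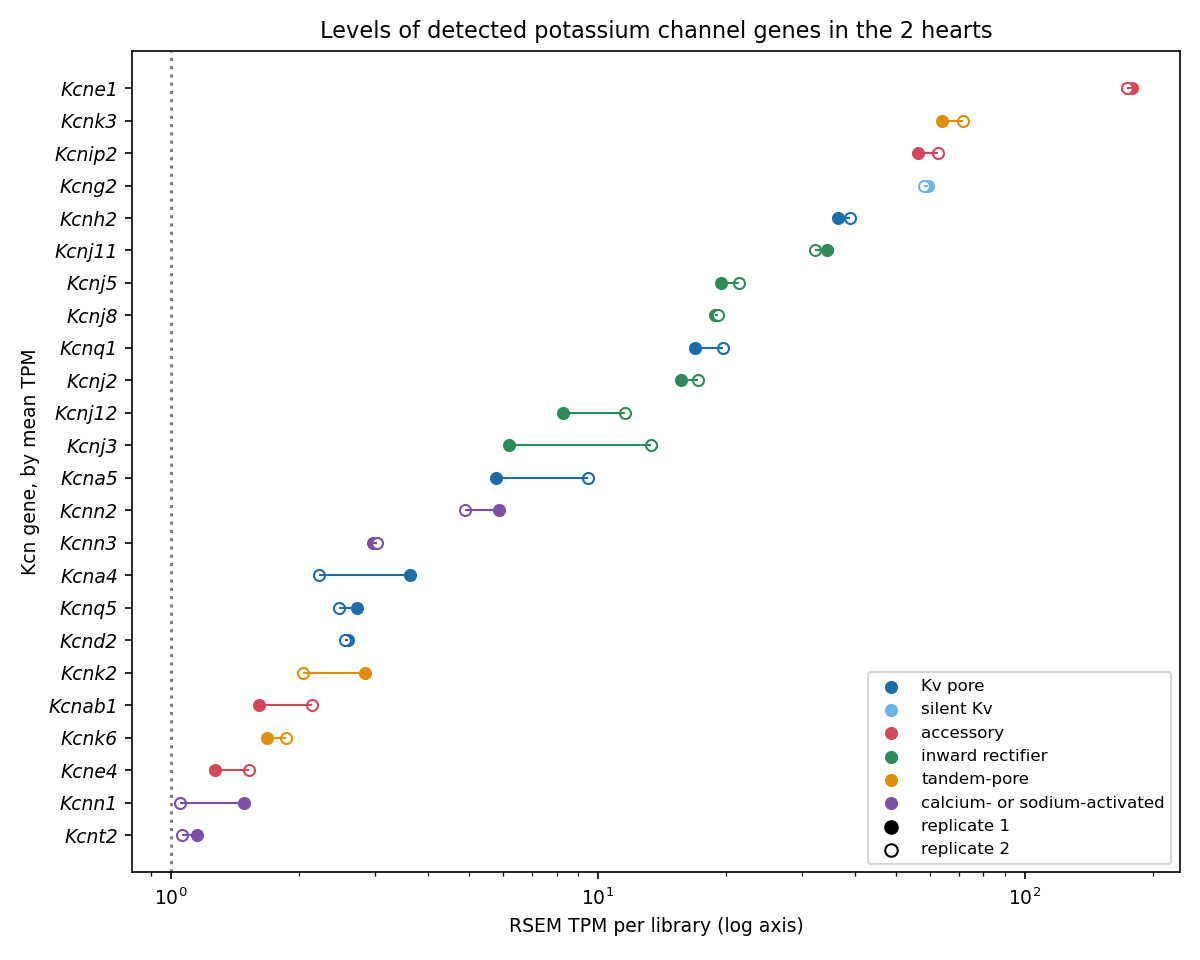
Level of 24 of the 26 detected Kcn genes in the 2 libraries (RSEM TPM, log axis; filled point replicate 1, open point replicate 2, colour by role; dotted line at 1 TPM). Kcne1 stands highest at 178 and 173 TPM, and the points of Kcnj12, Kcnj3, Kcna5 and Kcna4 lie far apart.

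In the order of mean levels, 16 of the 25 pairs of neighbouring detected genes had overlapping ranges over the 2 libraries. Among the 11 highest genes, 4 of 10 neighbouring pairs overlapped, among them Kcnip2 with Kcng2, Kcnj8 with Kcnq1, and Kcnq1 with Kcnj2. The order below is therefore firm only between genes whose ranges are apart.

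Accessory subunits had the highest summed level of any role, 242 TPM in replicate 1 and 244 in replicate 2, although only 4 of 17 were detected. Kcne1, the subunit that slows the opening of the Kcnq1 channel, had 178 and 173 TPM (176 ± 3.57, SD, n = 2; chromosome 16, 92345982 to 92359468). Kcnip2, the calcium-binding partner of the transient outward channels, had 56.1 and 62.6 TPM (59.4 ± 4.60; chromosome 19, 45791839 to 45816061). Kcne4, which damps several Kv channels, had 1.27 and 1.52 TPM, and Kcnab1, a cytoplasmic beta subunit, had 1.61 and 2.14 TPM. Among members that missed detection, the relatives Kcnab2 and Kcnip3 had 1.10 and 0.84, and 0.47 and 0.62 TPM. The other Kcne genes were low: Kcne3 had 0.40 and 0.63 TPM, Kcne2 0.02 and 0, and Kcne1l 0.53 and 0.38. Of the subunits for the calcium-activated channel Kcnma1, Kcnmb4 had 1.09 and 0.73 TPM and Kcnmb1, the smooth muscle form, 0.40 and 0.56.

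**Figure D2:**
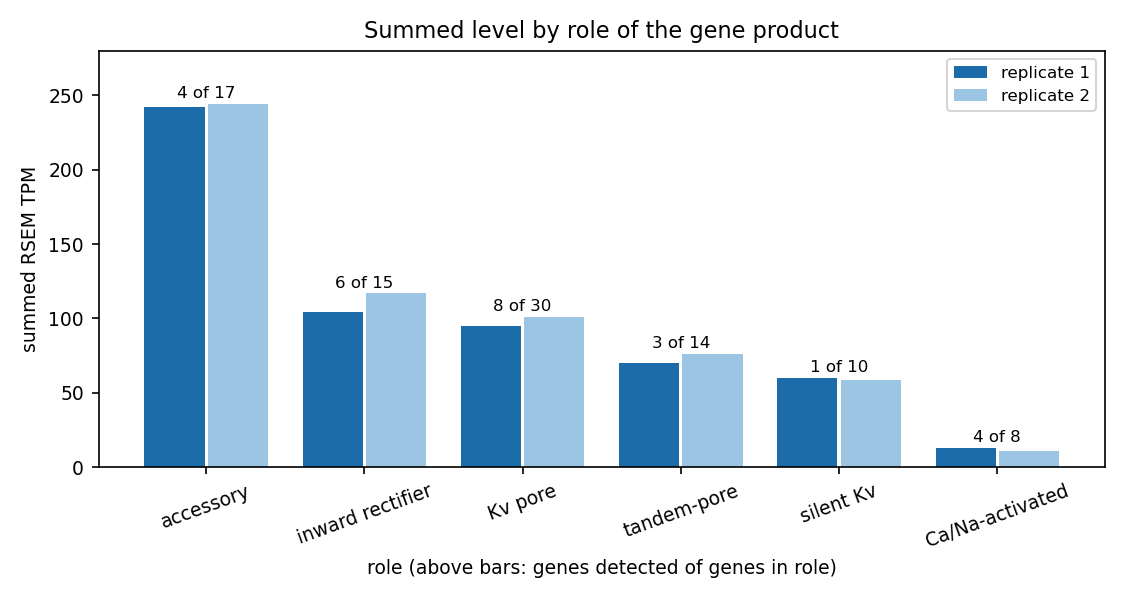
Summed RSEM TPM of the 94 Kcn genes by role, 1 bar per library, with the number of detected genes over the number in the role above the bars. Accessory subunits sum to 242 and 244 TPM from 4 detected genes, and the 30 Kv pore genes to 94.6 and 101 TPM from 8.

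The place of Kcne1 at the top rests on the length of its transcript. RSEM put 79.2% and 80.5% of its TPM on Kcne1-202, which is 602 nt long, and the rest on Kcne1-201, which is 3174 nt long, and both have the same 387-base coding sequence. When all its counts were set over the longest transcript (an alternative chosen after the data were seen), Kcne1 had 60.2 and 56.6 TPM, a mean of 58.4, below Kcnk3 at 64.7. The corresponding value for Kcnip2 was 39.4 TPM. Kallisto, which assigns reads to transcripts by another route, gave Kcne1 192 and 185 TPM. Over the longest transcripts the accessory role summed to 104 TPM in each library and the inward rectifiers to 98.0 and 110 TPM, so the first place of accessory subunits did not hold in replicate 2.

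**Figure D3:**
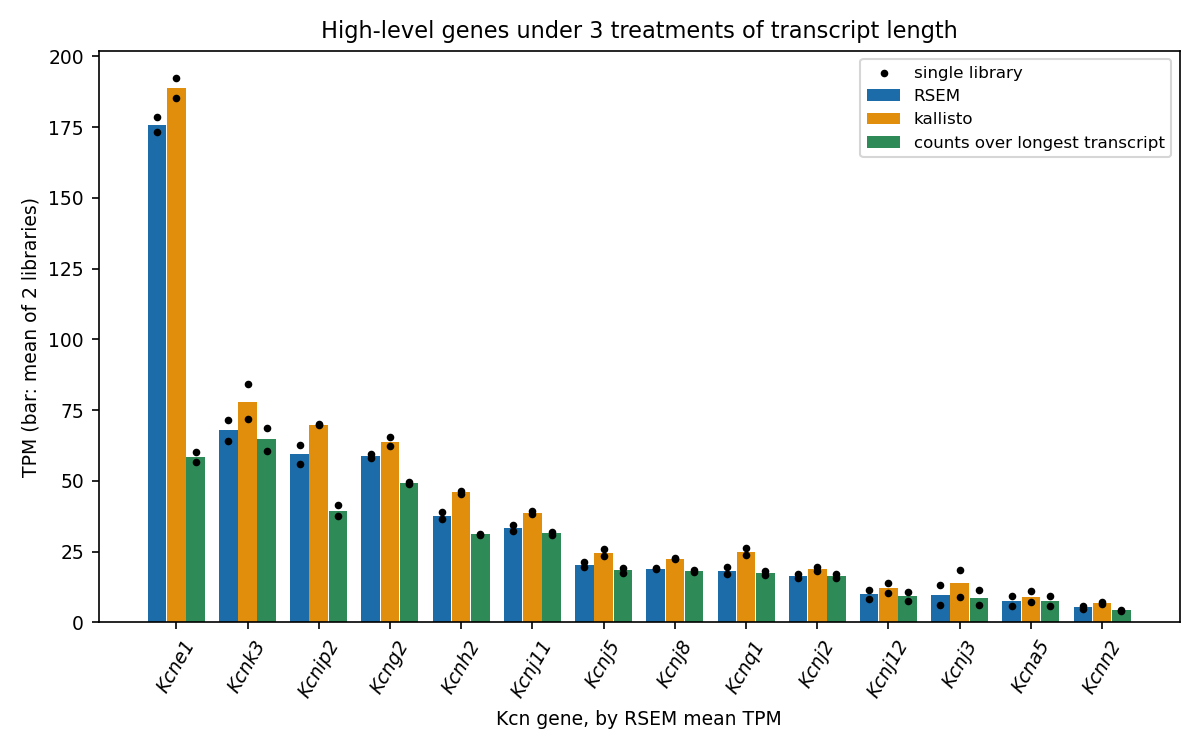
Mean level of 14 of the highest Kcn genes under 3 treatments of transcript length (bars; points are single libraries): RSEM TPM, kallisto TPM, and counts over the longest transcript. Kcne1 falls from 176 TPM by RSEM to 58.4 TPM over its longest transcript, while Kcnk3 stands at 67.9 and 64.7 TPM.

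Of the 30 Kv pore genes, 8 were detected, and they summed to 94.6 and 101 TPM with the others. Kcnh2, the pore of the rapid delayed rectifier, led with 36.5 and 39.0 TPM (37.7 ± 1.73, SD, n = 2; chromosome 5, 24319589 to 24351604). Kcnq1, the pore of the slow delayed rectifier, had 16.9 and 19.6 TPM. Both genes were close between the hearts. Kcna5, the ultrarapid delayed rectifier, had 5.78 TPM in replicate 1 and 9.47 in replicate 2. The transient outward pores were low: Kcnd2 had 2.60 and 2.55 TPM, and Kcnd3 had 0.89 and 0.79 and was not detected. Kcna4, the slowly recovering transient outward pore, had 3.63 and 2.22 TPM. Kcnq5, a relative of Kcnq1, had 2.73 and 2.47 TPM. The 22 undetected Kv pores, many of them known from neurons, had means from 0.005 to 0.945 TPM. They include Kcna1 (0.36 and 0.48 TPM) and Kcna2 (0.27 and 0.28).

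Pairs of genes whose products meet in a channel, or replace one another, were compared within each library as the log2 ratio of TPM + 0.1. A pair was read as apart where the sign was the same in each library and the mean was over 3 SD, since 2 libraries allow no exact p under 0.5. Of 15 pairs, 10 were apart. Kcne1 RNA was 9.60-fold that of Kcnq1 (log2 3.26 ± 0.18, SD, n = 2), or 3.33-fold over the longest transcripts. Kcnh2 RNA was 2.06-fold that of Kcnq1 (1.04 ± 0.085). Kcnip2 was 22.2-fold above its pore partner Kcnd2 (4.47 ± 0.13), or 14.8-fold over the longest transcripts, and Kcnd2 2.85-fold above Kcnd3 (1.51 ± 0.090). The order of Kcna4 and Kcnd2 was not settled. The log2 ratio was 0.47 in replicate 1 and -0.19 in replicate 2, and it was -0.65 with kallisto and -0.55 over the longest transcripts. RSEM placed 46.7% and 36.1% of Kcna4 TPM on a 370 nt noncoding transcript that held 14.4 and 6.67 counts, and kallisto placed 0.

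Only 1 of the 10 electrically silent Kv subunits was detected, and its level was high. Kcng2, whose product forms no channel alone and joins other Kv subunits, had 59.3 and 58.2 TPM (58.8 ± 0.792, SD, n = 2). The other 9 silent subunits had means between 0.005 and 0.125 TPM. RSEM put 82.2% and 82.9% of Kcng2 TPM on Kcng2-201, which held 4144 and 4022 of its 4213 and 4087 counts, and kallisto put 90.5% and 91.7% there.

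Inward rectifiers formed the next largest group, with sums of 104 and 117 TPM and 6 of 15 genes detected. The pore subunits of the ATP-sensitive channel, which couples metabolism to excitability, were Kcnj11 at 34.3 and 32.2 TPM and Kcnj8 at 18.8 and 19.1 TPM, and Kcnj8 lay below Kcnj11 (log2 -0.80 ± 0.082, SD, n = 2). Their sulfonylurea receptors were both present: Abcc9 had 104 TPM in each library and Abcc8 had 29.3 and 30.1. Abcc9 RNA was 3.12-fold that of Kcnj11 (log2 1.64 ± 0.059) and 3.49-fold that of Abcc8 (log2 Abcc8 over Abcc9 -1.80 ± 0.033, or -2.57 over the longest transcripts). Abcc9 and Kcnj8 are also known from pericytes and smooth muscle cells, whose 8 markers summed to 541 and 569 TPM, and the part of those cells in these levels was not tested.

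The classical resting current genes were Kcnj2, at 15.7 and 17.2 TPM, and Kcnj12, at 8.29 and 11.6 TPM. Their ratio did not exceed 3 SD (log2 Kcnj12 over Kcnj2 -0.74 ± 0.25, SD, n = 2), although it did over the longest transcripts (-0.85) and with a pseudocount of 1 TPM (-0.69). Kcnj4, another gene of this type, had 7 and 8 counts, or 0.11 and 0.13 TPM, and lay far below Kcnj2 in both libraries. The log2 ratio was -6.23 with the pseudocount of 0.1 TPM and -3.96 with 1 TPM, so its size depends on that floor. Of the acetylcholine-gated channel, Kcnj5 had 19.5 and 21.4 TPM in the 2 hearts, while Kcnj3 had 6.18 and 13.3, so that the log2 ratio of Kcnj3 over Kcnj5 was -1.64 in replicate 1 and -0.68 in replicate 2 and was not read as apart. Kcnj15 had 0.93 and 1.31 TPM and passed 1 TPM in replicate 2 only. Kcnj1, Kcnj6 and Kcnj9 were listed at 0 TPM in both libraries.

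Among tandem-pore leak channels, Kcnk3, an acid-sensitive channel, had 64.1 and 71.7 TPM (67.9 ± 5.40, SD, n = 2; chromosome 5, 30588170 to 30625271). It stood far above Kcnk2, the stretch-activated channel, which had 2.85 and 2.04 TPM (log2 Kcnk2 over Kcnk3 -4.76 ± 0.44). Kcnk6 had 1.68 and 1.86 TPM. The other 11 of 14 genes had means from 0 to 0.48 TPM, and Kcnk1 had 0.06 and 0.03. Kcnk3 thus held nearly all of the 69.7 and 76.3 TPM of this role.

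Channels opened by calcium or sodium summed to 12.6 and 11.1 TPM, the lowest of the roles. The small-conductance channels, which sense calcium through calmodulin, were led by Kcnn2 at 5.86 and 4.89 TPM, then Kcnn3 at 2.97 and 3.03 and Kcnn1 at 1.48 and 1.05. Kcnn2 RNA lay above that of Kcnn3 (log2 0.81 ± 0.20, SD, n = 2). The sodium-activated Kcnt2 had 1.15 and 1.06 TPM. Kcnma1, the large-conductance channel of smooth muscle, had 0.35 and 0.29 TPM, and its ratio to Kcnmb1 was not apart from 0 (-0.46 ± 0.43) except over the longest transcripts (-1.46).

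Of the 27 members listed for a known role in heart muscle, 20 were detected and 7 were not: Kcnd3, Kcne2, Kcne3, Kcnj4, Kcnk1, Kcnma1 and Kcnmb1. In all, 68 members missed the threshold. Among them, 7 had no count in either library, which allows up to 0.0747 and 0.0757 CPM (counts scaled by library size) in replicates 1 and 2 (3 counts, counting error only). The nearest to the threshold were Kcnj15, Kcnab2 (1.10 and 0.84 TPM), Kcna6 (0.92 and 0.97), Kcnmb4 and Kcnd3. Exons of 11 of the 26 detected genes overlap an exon of a gene on the opposite strand and 0 overlap one on the same strand. The opposite gene reached 1 TPM in both libraries beside 3 of them, among which were Kcng2 (2.72 and 2.17 TPM in that gene) and Kcnk3 (2.38 and 2.61). Whether the counting used strand is not given in the sources used here.

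Transcript use was read for members at a mean of 5 TPM or more in which at least 2 transcripts held 10% of the gene by either method. This took 10 of 15 genes, and the leading transcript was the same by RSEM and kallisto in 9 of them. Kcnj5-201 and Kcnj5-202 share their coding sequence, and together held 99.5% of its TPM in each library.

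**Figure D4:**
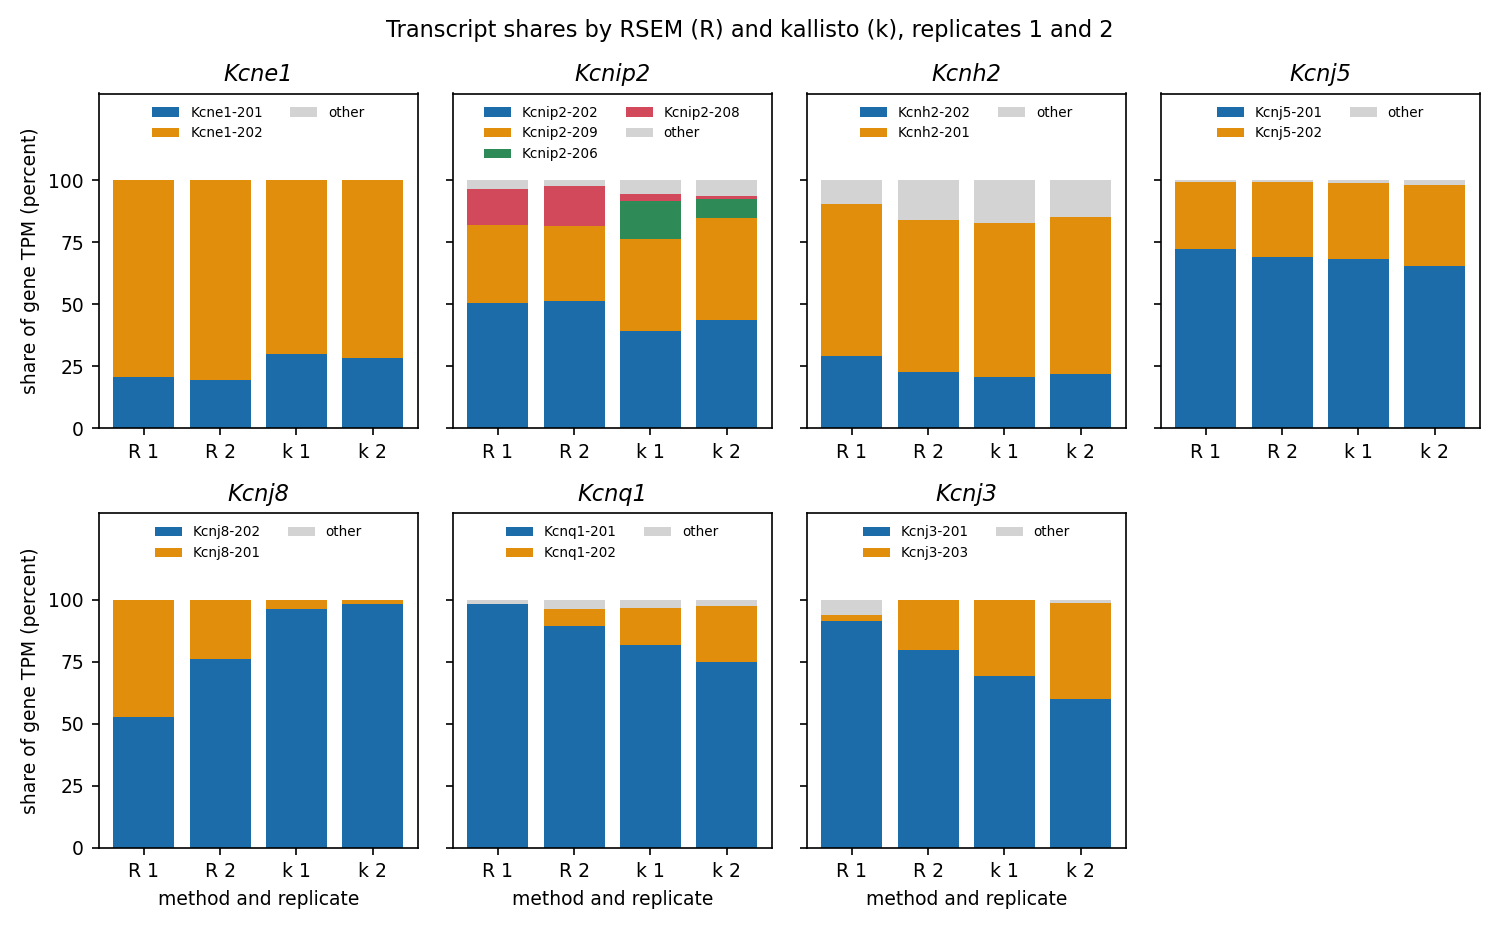
Share of each gene's TPM in its transcripts (percent) for 7 Kcn genes, by RSEM (R) and kallisto (k) in replicates 1 and 2; grey is the sum of transcripts under 10%. Kcnh2-201 holds 61.3% to 63.1% in all 4 bars, while Kcnj8-201 holds 47.4% and 23.6% by RSEM but 3.69% and 1.498% by kallisto.

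RSEM and kallisto each placed Kcnh2 TPM on the forms with either start, while reads at the starts themselves were not examined. Kcnh2-201, whose coding sequence of 3486 bases in 15 exons begins with the first sequence printed above, held 61.4% and 61.3% of Kcnh2 TPM by RSEM and 62.1% and 63.1% by kallisto. Kcnh2-202, with 2460 coding bases and its own first exon, held 29.2% and 22.5% by RSEM and 20.7% and 21.9% by kallisto. The forms share 10 coding exons of 2352 bases. Noncoding transcripts of the gene held 9.38% and 16.2% by RSEM.

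Kcnip2 RNA was divided between forms with and without the 54-base exon. Kcnip2-202, which lacks it, held 50.5% and 51.2% of the gene by RSEM and 39.4% and 43.5% by kallisto. Kcnip2-209, which holds it, had 31.5% and 30.6% by RSEM and 36.9% and 41.1% by kallisto. The exon adds 18 codons to the 252 of the shorter form. A further form, Kcnip2-208, with 8 coding exons against 9 in Kcnip2-202, held 14.3% and 15.9% by RSEM but 3.01% and 1.21% by kallisto. The methods differed the other way on Kcnip2-206, which held 0 by RSEM and 15.2% and 7.89% by kallisto in replicates 1 and 2.

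The methods disagreed on Kcnj8. RSEM put 47.4% of Kcnj8 TPM in replicate 1 and 23.6% in replicate 2 on Kcnj8-201, whose coding sequence has 381 bases against 1272 in Kcnj8-202, while kallisto put 3.69% and 1.498% there. The level of the shorter form is thus not settled by these tables, while the level of the whole gene was 22.3 and 22.7 TPM by kallisto. For Kcnq1, transcript Kcnq1-201 held 98.5% and 89.3% by RSEM and 81.7% and 74.9% by kallisto. Kcnj3-201 and Kcnj3-203, which share a coding sequence, held 91.3% and 2.71% of Kcnj3 in replicate 1 and 79.7% and 20.3% in replicate 2 by RSEM. By kallisto Kcnj3-203 held 30.6% and 38.8%, so the apparent shift between the hearts was larger by RSEM. Of Kcnn2, Kcnn2-205 held 55.0% and 71.5% by RSEM and 61.2% and 65.0% by kallisto. Some low genes were mostly counted on noncoding transcripts. In Kcnab1 these held 76.2% and 82.0% by RSEM and 71.4% and 89.4% by kallisto, so most of the Kcnab1 level is not protein-coding RNA as annotated. In Kcnn3, below the level limit and like Kcnab1 named here after its value was seen, a retained-intron transcript held 53.4% and 50.9% by RSEM and 50.3% and 48.6% by kallisto.

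To ask which genes differed between the hearts, counts rounded to whole numbers were set against each other in a two-sided exact binomial test. P-values were adjusted by Benjamini-Hochberg over 16517 genes that had 20 or more counts in all. The test compares 2 libraries and covers counting error only. With a limit of 2-fold on top of an adjusted p under 0.05, 0 of the 54 members tested were called, beside 1.27% of all genes tested. Without the fold limit 10 members (18.5%) passed, beside 17.3% of all genes, and 13 had an unadjusted p under 0.05, beside 27% of all genes. The share of members that passed was near that of all genes. Of the 54 members tested, 8 passed higher in replicate 2 (14.8%, beside 9.96% of all genes) and 2 passed lower (3.70%, beside 7.33%). The split was 4 higher and 5 lower when spike-in counts set the scale. Over the 36 members with a mean of at least 1 CPM, the median log2 ratio was 0.086, beside 0.0065 over all 13587 such genes, and 33 of the 36 lay within 1.5-fold.

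Kcnj3 had the largest ratio among detected members, with 958 and 1801 counts and 1.93-fold more in replicate 2 (log2 0.95 with a counting SE of 0.058, exact binomial test, adjusted p = 1.02e-61). Kcna5 was 1.65-fold higher in replicate 2 (log2 0.72, counting SE 0.082, adjusted p = 2.87e-17 by the same exact test), and Kcnj12 1.41-fold higher (log2 0.49, counting SE 0.080, adjusted p = 1.35e-08). At these 3 genes replicate 2 was the higher by more than counting error in every setting of the test, as it was at Kcnk3 by a smaller ratio. Kcnk3 was 1.14-fold (exact binomial test, adjusted p = 1.81e-14), Kcnip2 1.11-fold, Kcnj2 1.10-fold, Kcnj5 1.10-fold and Kcnq1 1.10-fold higher in replicate 2. The last 4 of these did not pass the exact binomial test with spike-in scaling (adjusted p = 0.304 for Kcnip2, 0.588 for Kcnj2, 0.709 for Kcnj5 and 0.687 for Kcnq1). Of 6 other settings, Kcnq1 passed only with a prior count (added before ratios are taken) of 2, which leaves the p-value unchanged.

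Kcna4 was 1.38-fold lower in replicate 2 (log2 -0.46, counting SE 0.13, exact binomial test, adjusted p = 0.00374), and Kcne1 1.06-fold lower (adjusted p = 0.0274). Kcnk2 had 237 and 177 counts and did not pass (adjusted p = 0.0503). Kcng2, Kcnh2, Kcnj11 and Kcnj8 were each within 1.06-fold between the hearts.

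Atrial muscle markers, like Kcnj3, Kcna5 and Kcnj12, were higher in replicate 2, and so were other lists given below. In counts all 8 were higher in replicate 2, by 1.26-fold to 2.17-fold, and 7 passed at an adjusted p under 0.05. The exception was Sbk2, whose TPM was 2.92 and 2.84. Nppa had 247 and 463 TPM, Myl7 146 and 256, Myl4 104 and 197, and Bmp10 9.35 and 20.2. Of 7 ventricular markers, 3 passed higher and 3 lower in replicate 2, between 0.778-fold and 1.42-fold, with Lrrc10 at 63.0 and 88.8 TPM and Irx4 at 20.1 and 15.5 TPM. Kcnj3 with Kcnj5 is known as an atrial and nodal channel, and Kcnj5 RNA was 1.10-fold higher where Kcnj3 RNA was 1.93-fold higher. Of 8 sinoatrial and conduction markers, 5 were higher and 3 lower in replicate 2 in counts, and 3 passed, all higher. The pacemaker gene Hcn4 had 1.75 and 2.58 TPM, while the nodal factors Tbx3 and Tbx18 had 7.58 and 6.63, and 3.78 and 3.66 TPM. All 5 red cell genes (2.32-fold to 2.67-fold) were also higher in replicate 2, and all 5 passed. The 5 macrophage genes were each higher in replicate 2 as well (1.05-fold to 1.47-fold), but only 1 of them passed. All 5 fat genes were lower there. With 2 libraries, genes that rise together cannot be tied to one another. How much atrial tissue each sample held was not measured, and its part in these differences was not tested.

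**Figure D5:**
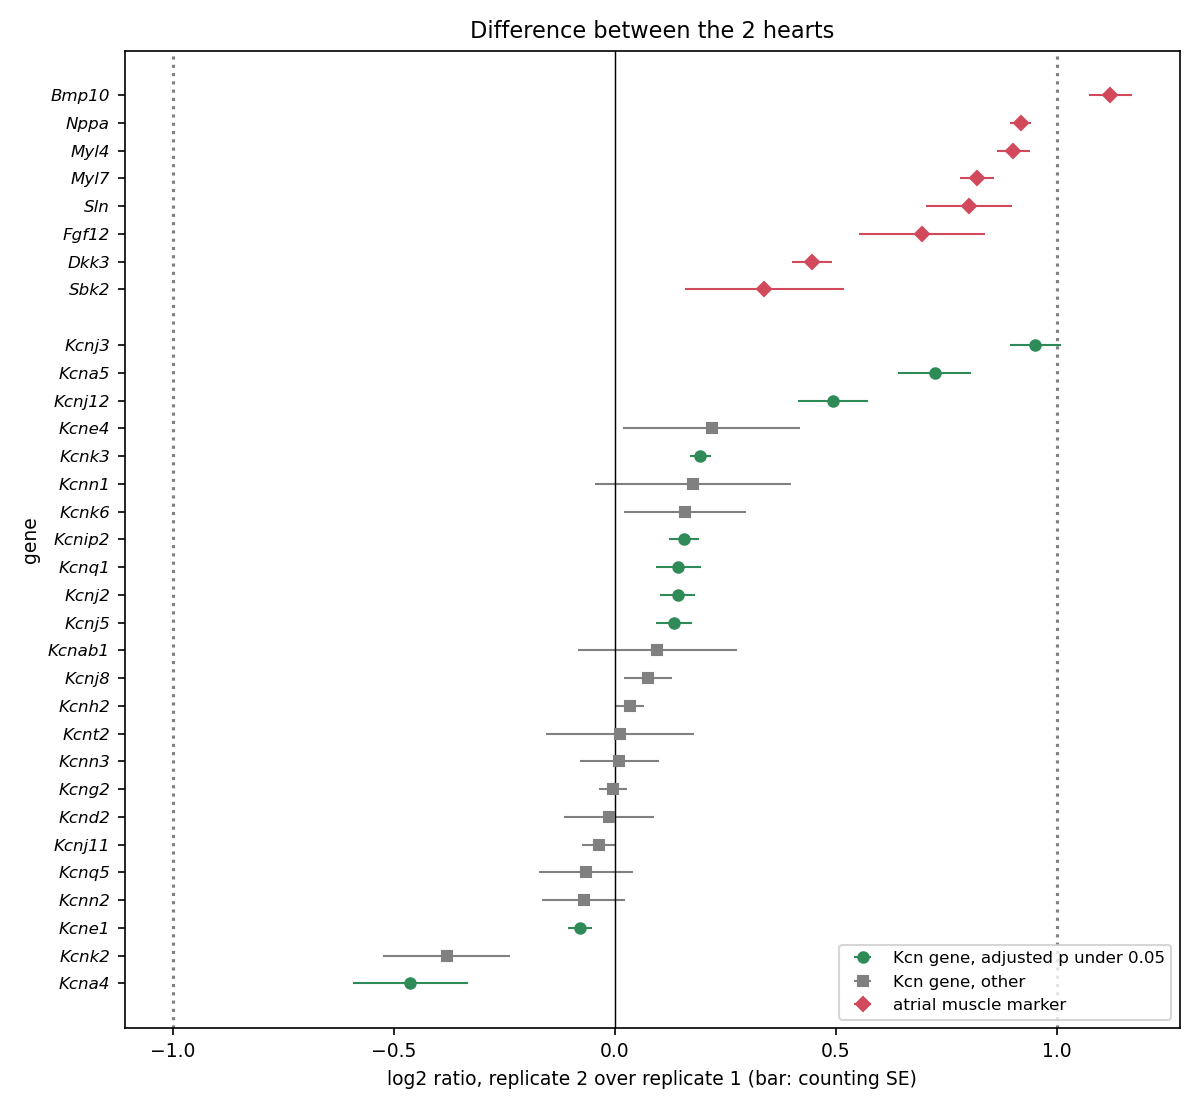
Log2 ratio of replicate 2 over replicate 1 for 24 of the 26 detected Kcn genes and 8 atrial muscle markers (points; bars are 1 counting SE; dotted lines at 2-fold). Kcnj3, Kcna5 and Kcnj12, at 0.95, 0.72 and 0.49, fall in the range of the atrial markers, and most other Kcn genes lie closer to 0. The ventricular marker Lrrc10, not plotted, falls there too at 0.51, while 4 of 7 ventricular markers were lower in replicate 2. The part of atrial tissue in these ratios was not tested.

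Genes that partner or regulate potassium channels were read from a list of 21, of which 15 were detected, 6 passed higher in replicate 2 at an adjusted p under 0.05 and 0 passed lower. The scaffold Ank2, 1.08-fold higher in replicate 2 in counts, had 117 and 112 TPM, Cav3 of the caveolae 63.2 and 65.5, and Akap9, which anchors kinase to the Kcnq1 channel, 19.0 and 21.3. Tmem38a, a potassium channel of the sarcoplasmic reticulum, had 113 and 131 TPM and its relative Tmem38b 6.07 and 6.46. The transient outward partners Dpp6 (0.01 and 0 TPM) and Dpp10 (0.18 and 0) were near 0, unlike Kcnip2. Of the large-conductance partners, Lrrc55 had 2.53 and 2.25 TPM and Lrrc26, Lrrc38 and Lrrc52 had at most 0.56. Irx5, a factor known to repress Kcnd2, had 4.38 and 3.96 TPM.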

How the data were processed

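Total RNA-seq of 2 hearts of 1 group was used. Per the text deposited with the files, tables were made on mm10 with annotation M21: RSEM-type gene and transcript tables from transcriptome alignments, and kallisto-type transcript tables from reads and an index. Per the file headers they hold expected or estimated counts, TPM and, for RSEM transcripts, the percent of the gene's TPM. These tool names are read from the headers, with versions and trimming not given in the sources used here. Reads were assigned on a C57BL/6J reference although the animals also carry CAST/EiJ chromosomes. Entries that name no gene held 3.84 and 2.92 expected counts and were left out, as were spike-ins.

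Members were joined by gene identifier. Levels are deposited TPM as mean ± SD. Library sizes were scaled by TMM (edgeR 4.0.16, R 4.3.3). Between libraries, an exact conditional binomial test was used (doubled smaller tail, prior count 0.5 for ratios) after it was tested on simulated data. The simulated counts varied by counting error only, so that trial did not cover spread between animals. The edgeR quasi-likelihood test could not be fitted to 1 library per side. Alternatives used DESeq2 1.42.0 size factors, ERCC spike-in and total counts, other filters, thresholds and pseudocounts, kallisto, and single libraries. Scripts ran in Python 3.11.15 with scipy 1.17.1, numpy 2.4.6, matplotlib 3.10.9 and pandas 2.3.3. The rule for named genes took detected or called members and 27 listed for heart muscle, and other undetected members named were chosen after their values were seen. Pore motifs in proteins were planned and not analysed here. Members, pairs and lists were chosen with earlier results of these data known. Some genes of these sets are counted in the totals and are not reported here by name.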

Additional observations from a re-analysis of the deposited data

Results flagged for a closer look

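Entries named after Kcn genes but without a protein-coding transcript lie outside the 94 members, and 2 of the 5 had more than 3 counts in each library. Kcnq1ot1, the imprinted antisense RNA within Kcnq1, had 1447 and 1195 counts in replicates 1 and 2, or 0.50 and 0.42 TPM (mean 0.46). Its exons overlap those of Kcnq1 over 121 bases. Kcnmb4os2, annotated antisense to Kcnmb4, had 8 and 7 counts, or 0.31 and 0.26 TPM (mean 0.285).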

How the results depend on the processing

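The count of detected members was 26 and ran from 20 at 2 TPM to 31 at 0.5 TPM, with 28 by kallisto, 23 over the longest transcripts, and 27 and 28 in replicates 2 and 1 alone. The 10 highest genes were the same with kallisto and in either library alone, and 9 of them over the longest transcripts. Members called at 2-fold stayed at 0 in all 6 other settings of the test, and those at an adjusted p under 0.05 numbered 9 or 10. Among these settings, the prior count of 2 changes ratios only, so its number at an adjusted p under 0.05 was fixed in advance. The median log2 ratio of the members was 0.086 with TMM and -0.022 with spike-in scaling, which moves every ratio by 0.11. With the DESeq2 size factors and with total counts, 7 were higher and 3 lower in replicate 2. The log2 ratio of Kcna4 over Kcnd2 turned from 0.14 to -0.65 with kallisto, to -0.55 over the longest transcripts and to -0.19 without replicate 1 (0.47 without replicate 2), and the cause was not tested. Between 10 and 12 of 15 pairs were apart in the 3 other settings. Longest-transcript values were added after the data were seen. No paired analysis was possible because there is only 1 group. At 2 libraries, differences beyond counting error cannot be assigned to animals.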
